A study of Mus musculus with 20 samples.

Results

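The Trem2-Tyrobp signalling genes are 10 genes of the receptor pathway by which microglia sense lipids and damaged cells. They were chosen by name for their place in this pathway, with earlier results of these data known, and they make up 10 of the 39056 genes in the count table. All 10 were among the 16107 genes that passed the filter on low counts and were tested. RNA from the left hippocampus of 20 female C57BL/6 mice of about a year of age was sequenced as stranded mRNA libraries. There was 1 library per mouse and 5 mice in each of 4 groups. The paper describes its cohorts as littermates, but which of these mice shared a litter is not given. The miR-34a WT Non-Tg mice (Non-Tg miR34a+/+) carried neither change, the miR-34a KO Non-Tg mice (Non-Tg miR34a-/-) lacked the microRNA from the germline in every cell, and the miR-34a WT Tg-SwDI mice carried the human amyloid precursor protein with the Swedish, Dutch and Iowa mutations under the neuronal Thy1 promoter. The miR-34a KO Tg-SwDI mice had both. No mouse was treated, and the transgene is expressed in neurons, whereas the 10 genes are known from microglia and other myeloid cells. A mouse is given by its group and the replicate number of its label.

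In microglia, Trem2 on the cell surface binds lipids and lipoproteins and has no signalling tail of its own. It pairs with the adaptor Tyrobp (also called DAP12), whose tyrosine motif recruits the kinase Syk once phosphorylated, and Syk passes the signal on to the phospholipase Plcg2 and the exchange factor Vav1. The lipid phosphatase Inpp5d (SHIP1) and inhibitory receptors such as Pilra restrain the pathway, and Cd33 is a receptor that binds sialic acid. Members of the Ms4a family have been linked to Trem2 levels, and Spi1 encodes PU.1, the transcription factor that myeloid cells depend on. Several of these genes carry variants linked to the risk of Alzheimer's disease in people.

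The 10 genes lie on 8 chromosomes of mm10 (GENCODE M21 gene models). Trem2 lies at chr17:48346401-48354147 on the plus strand, Tyrobp at chr7:30413760-30417585 on the plus strand and Spi1 at chr2:91082390-91115756 on the plus strand. Vav1 shares chromosome 17 with Trem2, Cd33 shares chromosome 7 with Tyrobp, and no other pair shares a chromosome. Since miR-34a is the molecule removed in the KO mice, its mature sequence is shown first, from RefSeq on GRCm38.p6 (chr4:150068473-150068494, plus strand), with its seed, bases 2 to 8, in capitals.
mmu-miR-34a-5p: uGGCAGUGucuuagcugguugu
The longest coding-transcript 3'UTR of each gene was searched for the letters that pair with this seed (the usual 7-base and 8-base seed sites, CACTGCC among them, on the transcript strand). Only Syk, the kinase, held a match, of the CACTGCC kind, at chr13:52647651-52647657 on the plus strand in exon 14 of 14, at base 1856 of a 3'UTR of 2997 bases. The match is in capitals.
Syk 3'UTR site: aggttgggaacCACTGCCtttgataggga
Thus 1 of the 10 genes held a match, against 23.6% of 14707 tested genes with an annotated 3'UTR. Trem2 held none, although the paper cites earlier work in which miR-34a bound TREM2 mRNA directly in cultured microglia. The search covered only seed sites in the longest coding-transcript 3'UTR of each gene. Binding of miR-34a to Trem2 at other sites or in other transcripts was not tested. The median 3'UTR of the 10 genes was 422 bases against 1200 bases over the tested genes, although those of Cd33 (4646 bases), Syk and Pilra (1520 bases) were longer than that. Mir34a itself is not analysed here, so that its loss was taken from the labels. The transgene label was checked on Thy1, whose CPM (counts scaled to the size of the library) ranged from 685 to 769 among the 10 Non-Tg mice and from 1905 to 3318 among the 10 mice with the transgene.

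The promoters were looked at because the 10 genes all rose with the transgene in KO mice, as described further on. The sequence GAGGAAG, or CTTCCTC when read on the other strand, is a purine-rich motif of the type that PU.1 and other ETS factors bind. RefSeq promoter windows (GRCm38.p6, 250 bases before to 50 bases after a gene's start) were used for 7 of the 10 genes, and those of Tyrobp, Spi1 and Ms4a6d were not analysed here. Both strands were searched, and Trem2, Vav1, Inpp5d, Cd33 and Pilra held 1 match each, so that 5 of 7 genes held it against 15.4% of all 27025 genes with a window. The match began 41 bases before the start of Trem2, 11 bases before that of Vav1 and 20 bases before that of Inpp5d, and it lay more than 200 bases before the starts of Cd33 and Pilra. The 100 bases before the starts of the 3 genes with the nearest matches are shown, 5' to 3' on the plus strand, with the match in capitals.
Trem2, chr17:48346301-48346400: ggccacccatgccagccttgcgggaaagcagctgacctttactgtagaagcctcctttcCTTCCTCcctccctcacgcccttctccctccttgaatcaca
Vav1, chr17:57279000-57279099: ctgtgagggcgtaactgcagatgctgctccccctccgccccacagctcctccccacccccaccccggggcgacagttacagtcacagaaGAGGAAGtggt
Inpp5d, chr1:87620212-87620311: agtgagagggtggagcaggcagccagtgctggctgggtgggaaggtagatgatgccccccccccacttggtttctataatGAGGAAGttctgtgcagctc
These matches are a description of the letters in the windows, and binding was not measured.

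Each library held between 19549622 and 21066868 counts. The library of KO Tg-SwDI replicate 8 stood apart, with 14.6% of its counts on mitochondrial genes against 6.94% to 8.76% in the 19 others. Markers of the choroid plexus, a tissue that borders the hippocampus, varied widely, and their summed CPM ranged from 71.2 to 370 in KO Non-Tg, from 70.4 to 4554 in WT Non-Tg, from 135 to 3922 in WT Tg-SwDI and from 142 to 4081 in KO Tg-SwDI mice. Of the 14 choroid plexus genes tested, 12 were called higher in KO Tg-SwDI than in KO Non-Tg mice, and edgeR, DESeq2 and exactTest called 0 between the WT groups, with 0 at an unadjusted p under 0.05. Hippocampal neuron markers were present in every library, with summed levels of 3990 to 5361 CPM. The labels give no litter or batch, so that p-values measure the spread between these mice.

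Trem2 and Tyrobp were the highest of the 10 genes per length of transcript in every group. RPKM, the CPM divided by the exonic length in kilobases, is used here since levels of different genes can only be compared per length. In WT Non-Tg mice Tyrobp stood at 20.4 ± 3.20 RPKM (SD, n = 5), followed by Trem2 at 2.51 ± 0.24, Inpp5d at 1.80 ± 0.18, Spi1 at 1.77 ± 0.45, Plcg2 at 1.47 ± 0.21, Cd33 at 1.22 ± 0.12, Vav1 at 1.04 ± 0.26, Ms4a6d at 0.738 ± 0.10, Syk at 0.497 ± 0.06 and Pilra at 0.0868 ± 0.060. Neighbours in this order from Inpp5d down to Ms4a6d had ranges that overlapped, whereas Tyrobp, Trem2, Syk and Pilra did not overlap the gene next to them in the order. The exonic length of Trem2 (4946 bases) holds transcripts with retained introns. With the longest coding transcript (1088 bases) as its length, Trem2 stood at 11.4 per kilobase in WT Non-Tg mice, against an RPKM of 2.51, and it remained second to Tyrobp at 22.8. In KO Tg-SwDI mice Tyrobp stood at 131 ± 13.7 RPKM, Trem2 at 19.1 ± 2.78 and Spi1 at 4.76 ± 1.20, and Pilra remained last at 0.298 ± 0.037. Pilra rested on 2 to 23 counts per library and Ms4a6d on 11 to 60, so that their values carry more counting error than those of the other 8 genes, whose lowest library held 53 counts.

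**Figure D1:**
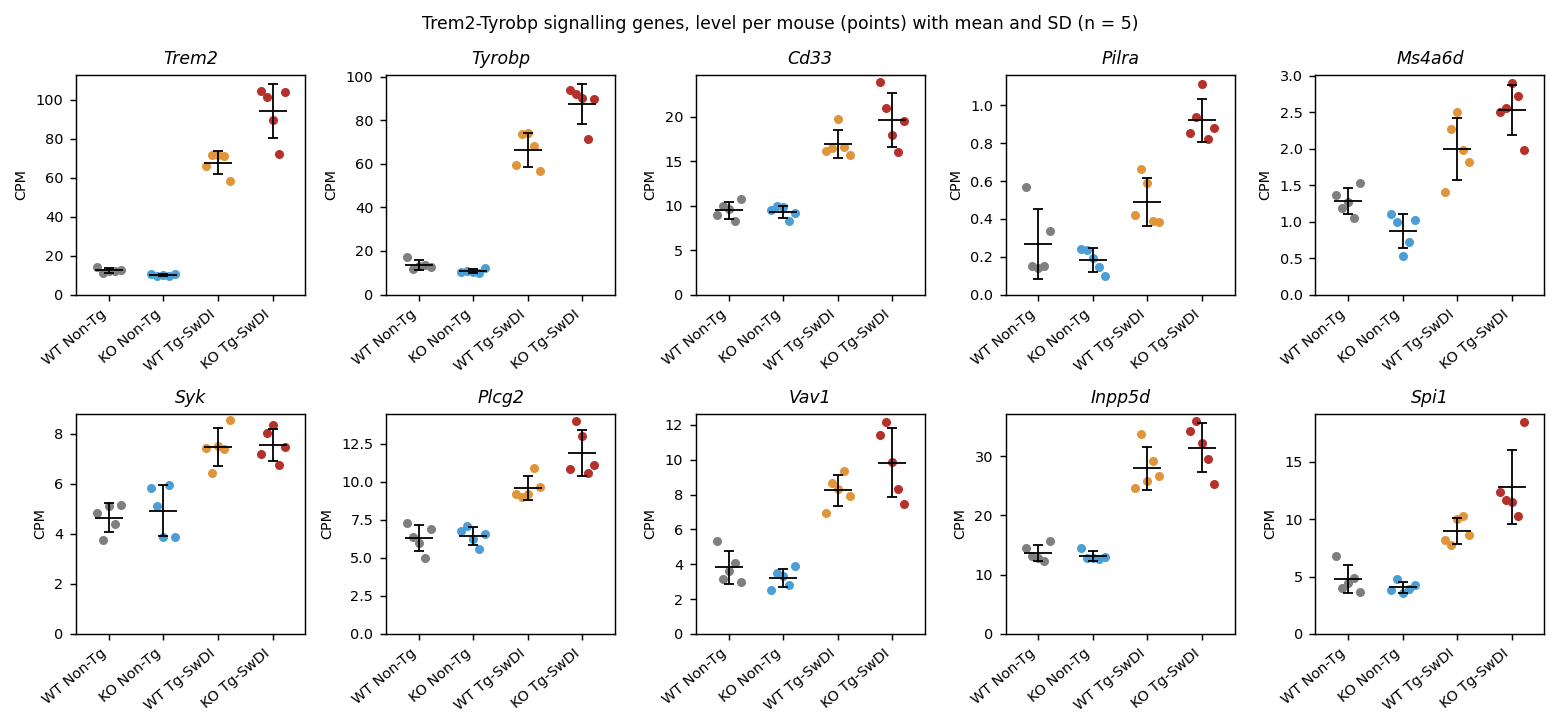
CPM (y axis, linear from 0) of each of the 10 genes in each mouse (points) of the 4 groups, with the group mean and SD (black, n = 5). For Trem2 the KO Tg-SwDI mice lie at 72.2 to 105 CPM, above the WT Tg-SwDI mice at 58.1 to 71.7 CPM, while all Non-Tg mice lie at or below 14.3 CPM.

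The first question was how the transgene and its amyloid moved these genes in mice with and without miR-34a. In KO mice the transgene went with higher levels of all 10 genes, and Trem2 rose most, 9.37-fold, with Tyrobp next at 8.14-fold. In WT mice 8 of the 10 rose, Trem2 5.45-fold and Tyrobp 4.87-fold. Tested over all genes, 12.5% were called higher in KO mice and 3.94% in WT mice at an adjusted p under 0.05. In KO mice the groups did not overlap for any of the 10 genes, against 8.47% of all genes above without overlap, and in WT mice 8 of the 10 did not overlap, against 5.10%. Pilra passed the filter on low counts only through the KO Tg-SwDI mice, where it is high. Its part in these counts for KO mice was therefore favoured by the filter. The median log2 fold change of the 10 genes was 1.58 in KO and 0.88 in WT mice, against a median over all genes of -0.0048 and 3.2e-05. Because the tissue is whole hippocampus, more cells of a type and more RNA per cell cannot be told apart in any of these values.

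Trem2, the receptor, stood at 14.3, 11.1, 11.9, 12.2 and 12.5 CPM in WT Non-Tg replicates 2, 3, 4, 6 and 7, and at 66.1, 71.7, 71.4, 71.3 and 58.1 CPM in WT Tg-SwDI replicates 3, 4, 5, 6 and 7. It stood at 10.7, 9.58, 10.1, 9.45 and 10.4 CPM in KO Non-Tg replicates 1, 2, 4, 7 and 8, and at 105, 101, 89.4, 72.2 and 104 CPM in KO Tg-SwDI replicates 1, 2, 3, 5 and 8. Every Tg-SwDI mouse was thus several times above every Non-Tg mouse, and KO Tg-SwDI replicate 5 was the lowest of its group. The log2 fold change with the transgene was 3.23 in KO mice (SE 0.09, adjusted p = 1.04e-17) and 2.45 in WT mice (SE 0.09, adjusted p = 1.82e-15).

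Tyrobp, the adaptor that signals for Trem2, stood at 17.3, 11.7, 13.01, 13.3 and 12.7 CPM in WT Non-Tg mice, replicates in the same order, and at 59.5, 73.6, 74.0, 68.0 and 56.8 CPM in WT Tg-SwDI mice. It stood at 10.5, 10.9, 10.3, 9.88 and 12.045 CPM in KO Non-Tg mice, and at 93.9, 92.1, 90.2, 71.4 and 89.9 CPM in the KO Tg-SwDI mice. As for Trem2, the Tg-SwDI mice lay far above the Non-Tg mice, and KO Tg-SwDI replicate 5 lay within the range of the WT Tg-SwDI mice. The log2 fold change with the transgene was 3.03 in KO mice (SE 0.10, adjusted p = 2.78e-16) and 2.29 in WT mice (SE 0.10, adjusted p = 7.66e-14).

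Cd33 and Pilra rose less with the transgene than Trem2 and Tyrobp. Cd33, which binds sialic acid, stood at 8.25 to 10.7 CPM in WT and 8.25 to 9.91 CPM in KO mice without the transgene, and at 15.7 to 19.7 CPM in WT and 15.998 to 24.0 CPM in KO mice with it. The transgene raised it 2.11-fold in KO mice (adjusted p = 3.56e-09) and 1.78-fold in WT mice (adjusted p = 7.99e-07). Pilra, a paired receptor with an inhibitory tail, rose 4.93-fold in KO mice (log2 2.30, SE 0.33, adjusted p = 1.18e-05), from 0.0967 to 0.239 CPM in KO Non-Tg to 0.820 to 1.11 CPM in KO Tg-SwDI mice. In WT mice its groups overlapped and its log2 difference of 0.84 (SE 0.34) did not pass the test (adjusted p = 0.215). WT Non-Tg replicate 2, at 0.567 CPM and the highest of its group, lay within the WT Tg-SwDI range of 0.383 to 0.662 CPM, and without it the adjusted p was 0.0224 with a log2 difference of 1.31.

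Ms4a6d, a tetraspan membrane protein gene, rose 2.89-fold with the transgene in KO mice (log2 1.53, SE 0.19, adjusted p = 1.23e-06). In WT mice its log2 difference was 0.63 (SE 0.19) at an adjusted p of 0.05003, just above the threshold, and its groups overlapped, with 1.05 to 1.53 CPM in WT Non-Tg and 1.41 to 2.50 CPM in WT Tg-SwDI mice. It fell below the threshold without any 1 of 4 mice, with adjusted p-values of 0.0351 without WT Non-Tg replicate 7, 0.0352 without KO Non-Tg replicate 4, 0.0170 without WT Tg-SwDI replicate 3 and 0.0372 without KO Tg-SwDI replicate 8.

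Downstream of Tyrobp, the kinase Syk showed the smallest rise of the 10 genes in KO mice. It stood at 3.77 to 5.16 CPM in WT and 3.86 to 5.95 CPM in KO mice without the transgene, and at 6.43 to 8.56 CPM in WT and 6.77 to 8.36 CPM in KO mice with it, a 1.54-fold rise in KO (adjusted p = 0.000664) and a 1.60-fold rise in WT mice (adjusted p = 0.000524). The phospholipase Plcg2, which produces second messengers from membrane lipids, rose 1.85-fold in KO (adjusted p = 3.57e-07) and 1.52-fold in WT mice (adjusted p = 0.000281). Vav1, which activates Rac GTPases, rose 3.07-fold in KO (adjusted p = 1.37e-08) and 2.16-fold in WT mice (adjusted p = 1.33e-05). Inpp5d, the phosphatase that removes a phosphate from the PI3-kinase product, rose 2.39-fold in KO (adjusted p = 1.05e-10) and 2.05-fold in WT mice (adjusted p = 1.15e-08). For each of these 4 genes the lowest Tg-SwDI mouse lay above the highest Non-Tg mouse of the same miR-34a genotype.

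Spi1, the transcription factor, stood at 6.76, 4.02, 4.46, 4.90 and 3.68 CPM in WT Non-Tg mice and at 8.17, 7.76, 10.01, 10.2 and 8.61 CPM in the WT Tg-SwDI mice. It stood at 3.83, 4.74, 3.52, 3.89 and 4.26 CPM in KO Non-Tg mice and at 12.4, 11.6, 11.5, 10.3 and 18.4 CPM in the KO Tg-SwDI mice. Replicate 8 of the KO Tg-SwDI mice, the library with the high mitochondrial share, was the highest of all 20. The transgene raised Spi1 3.16-fold in KO (log2 1.66, SE 0.16, adjusted p = 1.55e-08) and 1.88-fold in WT mice (log2 0.91, SE 0.16, adjusted p = 0.000330). Without replicate 8 the log2 fold change in KO mice was 1.4997 (adjusted p = 3.86e-09).

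The choroid plexus markers moved with the transgene in KO mice, as given above. With the choroid plexus score of each library as a covariate, all 10 genes remained called in KO mice, with log2 fold changes of 0.62 for Syk to 3.19 for Trem2 and a highest adjusted p of 0.00670 (Syk), and the same number, 8, was called in WT mice.

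**Figure D2:**
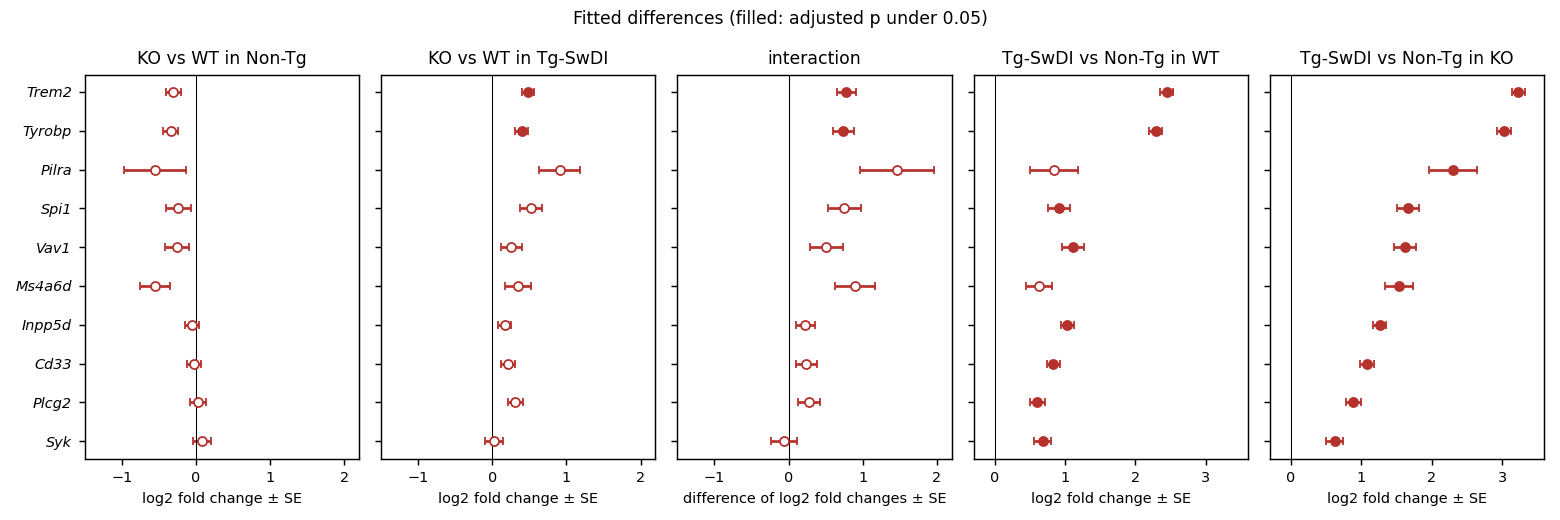
Log2 fold change with its standard error (x axis) of each of the 10 genes (y axis) in the 5 comparisons of the edgeR fit, filled where the adjusted p was under 0.05. All 10 points are filled for Tg-SwDI against Non-Tg in KO, 8 in WT, 2 (Trem2 and Tyrobp) for KO against WT in Tg-SwDI and for the interaction, and 0 for KO against WT in Non-Tg.

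The second question was what the loss of miR-34a did in mice with the transgene. All 10 genes were above 0 in log2 fold change for KO against WT in Tg-SwDI mice, as were 8160 of all 16107 genes tested. Syk was near 0 at 0.02 (SE 0.12) and changed sign under some alternatives. Of the 10 genes 2, Trem2 and Tyrobp, passed the test, where 1.48% of all genes were called higher. The median over the 10 genes was 0.33, against 0.0026 over all genes. Trem2 was 1.39-fold higher in KO (log2 0.48, SE 0.08, adjusted p = 0.00416), at 94.2 ± 13.7 CPM against 67.7 ± 5.85 CPM (SD, n = 5). All 5 KO mice were above all 5 WT mice, although the lowest KO mouse, replicate 5 at 72.2 CPM, was close to the highest WT mouse at 71.7 CPM. Tyrobp was 1.32-fold higher (log2 0.40, SE 0.09, adjusted p = 0.0229), at 87.5 ± 9.15 against 66.4 ± 7.94 CPM, with KO replicate 5 at 71.4 CPM inside the WT range of 56.8 to 74.0 CPM. The call of Tyrobp was lost without WT Tg-SwDI replicate 3 (adjusted p = 0.0675) or replicate 7 (adjusted p = 0.0763), and also with library size alone (0.0526), the compared groups alone (0.0734) and GC and length trends removed (0.0732), whereas that of Trem2 remained under each of these. Without KO replicate 8 both genes remained called, with adjusted p-values of 0.00837 for Trem2 and 0.0430 for Tyrobp. With a replicate block 0 of the 10 genes were called, with adjusted p-values of 0.178 for Trem2 and 0.345 for Tyrobp. Over the other alternatives the highest adjusted p of Trem2 was 0.0487.

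Of the genes that did not pass, Pilra and Spi1 also had groups that did not overlap. With Trem2 this made 3 of the 10 genes above without overlap, against 2.04% of all genes. Pilra passed the filter on low counts only through the KO Tg-SwDI mice, so that its part in this count was favoured by the filter. Pilra stood at 0.852, 0.939, 1.11, 0.820 and 0.881 CPM in the KO Tg-SwDI mice and at 0.423, 0.662, 0.589, 0.387 and 0.383 CPM in the WT Tg-SwDI mice, a log2 difference of 0.91 (SE 0.28, adjusted p = 0.0820) that rested on 16 to 23 against 8 to 14 counts and passed with exactTest (adjusted p = 0.0388). Spi1 had a log2 difference of 0.52 (SE 0.15, adjusted p = 0.0633), which passed with DESeq2 (adjusted p = 0.0274), exactTest (0.0408) and the choroid plexus covariate (0.0483). Without KO replicate 8 it was 0.35 (adjusted p = 0.152), whereas the adjusted p was 0.0429 without WT Non-Tg replicate 2 and 0.0479 without KO Tg-SwDI replicate 2.

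The other 6 genes had groups that overlapped. The log2 difference was 0.31 for Plcg2 (SE 0.10, adjusted p = 0.0941), 0.22 for Cd33 (SE 0.09, adjusted p = 0.202), 0.35 for Ms4a6d (SE 0.17, adjusted p = 0.277), 0.17 for Inpp5d (SE 0.09, adjusted p = 0.309) and 0.26 for Vav1 (SE 0.14, adjusted p = 0.343). Syk, the one gene of the 10 with a seed match to miR-34a, had a mean of 7.57 CPM (SD 0.64, n = 5) in KO mice with the transgene and of 7.46 CPM (SD 0.75) in WT mice with it, with a log2 difference of 0.02 (SE 0.12, adjusted p = 0.950). Within the KO Tg-SwDI group replicate 5 was the lowest mouse for 7 of the 10 genes and replicate 8 for the other 3.

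The third question was the loss of miR-34a in mice without the transgene. None of the 10 genes passed the test, and of all 16107 genes tested 0 were called higher and 0 lower. Of the 10 genes 3 had an unadjusted p under 0.05, as did 1302 of all genes tested. DESeq2 called 7 genes and edgeR's exactTest 4 genes over the whole table, with 0 of the 10 genes among them in each. Values of 8 of the 10 genes were below 0, with a median of -0.24 against -0.0021 over all genes. Above 0 were 2 of the 10 genes, against 7914 of all 16107 genes tested. Trem2 stood at 10.1 ± 0.53 CPM in KO and 12.4 ± 1.20 CPM in WT Non-Tg mice, with every KO mouse below every WT mouse, a log2 difference of -0.30 (SE 0.10, adjusted p = 0.508). Groups lay below without overlap for 0.894% of all genes. For Tyrobp the log2 difference was -0.34 (SE 0.11, adjusted p = 0.508) and for Ms4a6d -0.55 (SE 0.21, adjusted p = 0.537), both with groups that overlapped. In these same mice all 14 choroid plexus genes were below 0 in log2 difference and had an unadjusted p under 0.05. With the choroid plexus covariate 0 of the 10 genes were called.

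The interaction tested whether the difference between KO and WT mice was itself different with and without the transgene. It was called for Trem2 (difference of log2 fold changes 0.78, SE 0.13, adjusted p = 0.0146) and Tyrobp (0.74, SE 0.14, adjusted p = 0.0199), which is 2 of 10 genes against 0.428% of all genes called higher. For both genes the mean of KO mice was above that of WT mice with the transgene and below it without the transgene, where the difference by itself did not pass the test. The call of Tyrobp was lost without KO Non-Tg replicate 7 (adjusted p = 0.0513) and with GC and length trends removed (0.0644). The 14 choroid plexus genes tested had a median of 2.68 in the interaction. With the choroid plexus covariate Trem2 (adjusted p = 0.0304) and Tyrobp (0.0494) remained called, while 27 genes were called over the whole table against 98 without it. Ms4a6d (0.90, SE 0.27, adjusted p = 0.104), Spi1 (0.75, SE 0.22, adjusted p = 0.102) and Pilra (1.46, SE 0.50, adjusted p = 0.138) did not pass, nor did Vav1 (0.51, SE 0.22, adjusted p = 0.233), Plcg2 (0.28, adjusted p = 0.325), Cd33 (0.24, adjusted p = 0.362), Inpp5d (0.23, adjusted p = 0.379) or Syk (-0.06, adjusted p = 0.891). With DESeq2 the interaction of Spi1 passed (0.76, adjusted p = 0.0402). The 5 comparisons share groups of mice, so that they are not independent of each other.

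Trem2 and Tyrobp kept close to each other over the 20 mice. The ratio of Trem2 to Tyrobp in CPM was 0.919 ± 0.057 (SD, n = 5) in WT and 0.939 ± 0.064 in KO mice without the transgene and 1.02 ± 0.059 in WT and 1.07 ± 0.070 in KO mice with it, and the range of each group overlapped that of at least 1 other. Likeness was measured as the root mean square difference of log2 CPM, each gene centred on its mean over the 20 mice. For Trem2 the most alike gene was Tyrobp at 0.12, then Cd68, a lysosomal protein of phagocytes, at 0.20 and Mamdc2 at 0.24, where the median over the other genes was 1.45. For Tyrobp they were Trem2 at 0.12, Cd68 at 0.20 and Ly86, a partner of Toll-like receptor family proteins, at 0.22, with a median of 1.36. For Spi1 they were Apbb1ip, an adaptor of Rap1 and integrin signalling, at 0.19, the cytokine Tgfb1 at 0.20 and Chil1 at 0.22, with a median of 0.74. These values describe 20 mice that share 4 groups, and the group differences enter them.

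**Figure D3:**
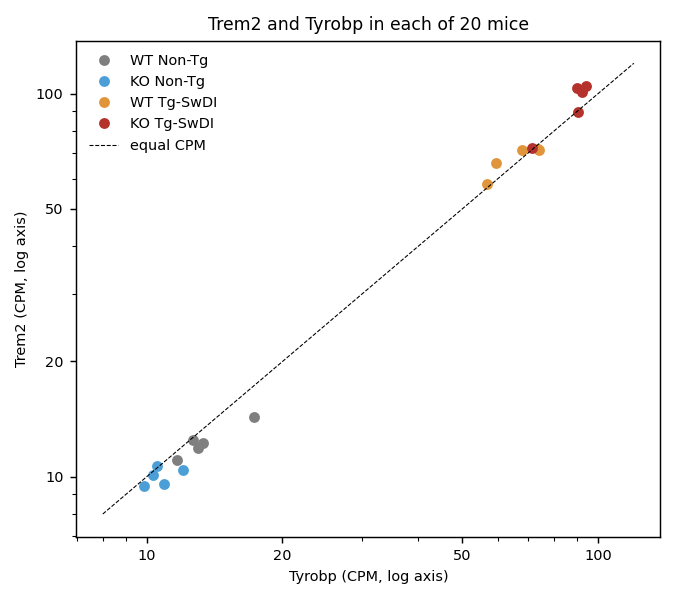
Trem2 against Tyrobp in CPM in each of the 20 mice, both on log axes, coloured by group, with a dashed line where the genes have equal CPM. The mice lie along the line, with group mean ratios of 0.919 to 1.07 and the Non-Tg and Tg-SwDI mice well apart.

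The 10 genes were then set against the microglial content of the tissue as far as marker genes show it. The 14 homeostatic microglia genes, such as P2ry12, Tmem119 and Cx3cr1, were all present in every library, so that microglial RNA was found where the labels give hippocampus. They summed to 493 ± 41.7 CPM (SD, n = 5) in WT and 472 ± 11.7 CPM in KO mice without the transgene, and to 954 ± 62.2 CPM in WT and 1186 ± 145 CPM in KO mice with it. With the transgene 14 of the 14 were called higher in KO and 13 in WT mice, and 3 (Csf1r, Siglech and Sall1) were called higher in KO than WT Tg-SwDI mice. The microglial markers therefore moved in the same comparisons as the 10 genes.

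Relative to the summed microglial level, Trem2 rose with the transgene by 1.89 on the log2 scale in KO and by 1.49 in WT mice, and Tyrobp by 1.70 and 1.34, all without overlap between groups. Pilra was higher by 1.09 in KO mice without overlap. Of the others in KO mice, Cd33 (-0.26), Ms4a6d (0.25), Vav1 (0.29), Inpp5d (-0.07) and Spi1 (0.32) had groups that overlapped, while Syk (-0.68) and Plcg2 (-0.44) lay below without overlap. The CPM of Syk and Plcg2 thus rose with the transgene by less than the markers did. In WT mice Syk (-0.27) and Plcg2 (-0.34) were lower on this scale too, with groups that overlapped. The groups also overlapped in WT mice for Cd33 (-0.12), Ms4a6d (-0.33), Spi1 (-0.02), Pilra (0.12), Vav1 (0.18) and Inpp5d (0.08). Between KO and WT Tg-SwDI mice no gene of the 10 kept groups apart on this relative scale, with differences of 0.16 for Trem2 (pooled SD 0.19), 0.09 for Tyrobp (pooled SD 0.15), 0.19 for Spi1 (pooled SD 0.33) and 0.64 for Pilra (pooled SD 0.28). Syk was at -0.29 (pooled SD 0.17), Inpp5d at -0.14 (pooled SD 0.12), Cd33 at -0.10 (pooled SD 0.16) and Vav1 at -0.07 (pooled SD 0.11), while Ms4a6d (0.05) and Plcg2 (0.0005) were near 0. In Non-Tg mice Trem2 was lower in KO by 0.24 (pooled SD 0.06) without overlap. No test was made on this scale. The summed level includes Csf1r, which the paper describes as a miR-34a target. Csf1r was 1.47-fold higher in KO than WT Tg-SwDI mice (adjusted p = 0.000673), which lowers the relative values there. The mean log2 level of the microglial genes was used as another reference. With it the KO against WT differences in Tg-SwDI mice were 0.21 for Trem2, 0.14 for Tyrobp and -0.24 for Syk. The share of microglial content in the rise of Trem2 was not tested.

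**Figure D4:**
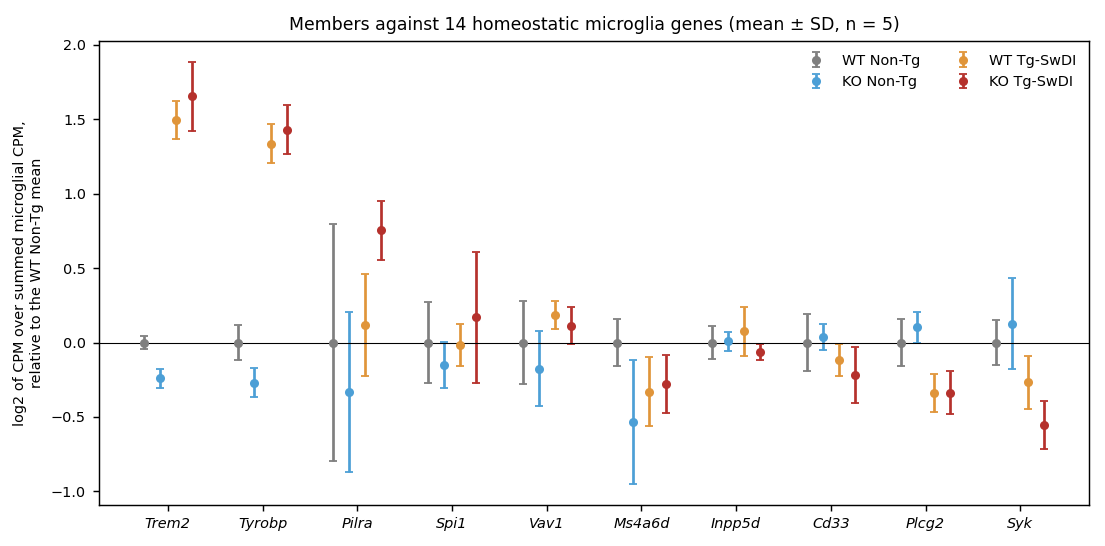
Log2 of each gene's CPM over the summed CPM of 14 homeostatic microglia genes (y axis), shown relative to the WT Non-Tg mean, as group mean and SD (n = 5). Trem2 and Tyrobp of WT Tg-SwDI mice lie 1.49 and 1.34 above the WT Non-Tg mean. The means of Syk, Plcg2, Cd33 and Ms4a6d lie below 0 in Tg-SwDI mice of both miR-34a genotypes. That of Inpp5d lies below 0 in KO Tg-SwDI mice alone and that of Spi1 in WT Tg-SwDI mice alone.

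Markers of other cells were counted too. Of 9 border macrophage genes, such as Mrc1 and Cd163, edgeR called 0 in any of the 5 comparisons, and their summed level lay between 21.4 and 45.0 CPM over all mice. Between KO and WT Tg-SwDI mice 3 of these 9 had an unadjusted p under 0.05, DESeq2 called 0 and exactTest 1. T and NK cell genes summed to 0.772 to 3.74 CPM, B cell genes to 0.480 to 4.73 CPM and neutrophil and monocyte genes to 0.522 to 1.91 CPM. In these lists 7 of 10, 5 of 6 and 6 of 8 genes had at most 10 counts in their highest library. The T cell gene Trac (1.77-fold, adjusted p = 0.0245) and Cd22, which is in the B cell list and which microglia express too, were called higher with the transgene in KO mice, and Cd22 in WT mice as well. Ms4a1 and Cd79a, which mark B cells, had at most 10 counts in any library. Among 5 astrocyte genes Gfap was 1.42-fold higher in KO than WT Tg-SwDI mice (adjusted p = 0.0412), and 3 (Gfap, Aqp4 and Slc1a3) were called higher with the transgene in each miR-34a genotype, Gfap 4.78-fold in KO and 3.10-fold in WT mice. Of 5 oligodendrocyte genes 4 (Mbp, Mag, Mog and Mobp) were called higher with the transgene in KO mice, by 1.17-fold to 1.29-fold. The part of these cells in the values of the 10 genes was not tested.

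Other genes of the pathway were taken from lists set out by role, and their counts stand beside all-gene shares called higher of 1.48% for KO against WT in Tg-SwDI, 12.5% for the transgene in KO, 3.94% for the transgene in WT mice and 0.428% for the interaction. Of 34 tested partner kinases, adaptors and regulators, 1 was called higher in KO than WT Tg-SwDI mice, a share near that of all genes, 18 were called higher and 3 lower with the transgene in KO mice, where 8.31% of all genes were called lower, and 16 were called higher in WT mice. The gene called between KO and WT Tg-SwDI mice was Fcer1g, the adaptor that serves Fc receptors as Tyrobp serves Trem2, 1.49-fold higher (log2 0.57, SE 0.11, adjusted p = 0.0132) and also called in the interaction (0.93, adjusted p = 0.0199). Its rise with the transgene was 5.07-fold in KO and 2.67-fold in WT mice. Rac2, a GTPase that Vav1 can activate, rose 3.62-fold with the transgene in KO mice and was called in the interaction (0.88, adjusted p = 0.0199). The phosphatase Ptpn6 (SHP-1), which inhibitory receptors recruit, rose 4.92-fold and the PI3-kinase subunit gene Pik3cg 2.81-fold with the transgene in KO mice. Between KO and WT Tg-SwDI mice their log2 differences were 0.42 for Rac2 (adjusted p = 0.0528), 0.40 for Ptpn6 (adjusted p = 0.111) and 0.38 for Pik3cg (adjusted p = 0.0502).

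Of the other activating receptors 4 of 17 found in the annotation were tested, and 4 were called higher with the transgene in KO and in WT mice. The filter on low counts can pass a gene through the Tg-SwDI mice alone, which favours such calls among low genes in this and the other lists. Which genes entered in this way was not looked at. Siglech, which signals through Tyrobp and is also among the 14 microglial genes, was called 1.25-fold higher in KO than WT Tg-SwDI mice (adjusted p = 0.0267). Clec5a, another Tyrobp partner, rose 3.66-fold, Treml2 7.42-fold and Cd300lb 6.28-fold with the transgene in KO mice. In WT mice Clec5a rose 2.30-fold, Treml2 3.85-fold and Cd300lb 7.86-fold. For KO against WT the SE in Non-Tg mice was 0.41 for Treml2 and 0.98 for Cd300lb, against 0.25 and 0.44 in Tg-SwDI mice. Of 11 tested inhibitory receptors 9 were called higher with the transgene in KO and 7 in WT mice, and 0 were called between KO and WT Tg-SwDI mice, with 4 at an unadjusted p under 0.05 and 0 called by DESeq2 or exactTest. Among them Lilrb4a rose 13.96-fold, Cd22 10.1-fold, Siglecf 8.82-fold and the collagen receptor Lair1 2.51-fold in KO mice. In WT mice Lilrb4a rose 12.6-fold, Cd22 4.59-fold, Siglecf 6.88-fold and Lair1 2.13-fold. Of 3 tested genes of the Ms4a family beside Ms4a6d, Ms4a6c (2.33-fold) and Ms4a6b (1.77-fold) were called higher with the transgene in KO mice and Ms4a6c (2.10-fold) in WT mice. Reads of the near-identical genes of this family and of the Pilra and Cd300 families may have been split between copies in the counting.

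Of 11 tested genes for ligands, lipid handling and shedding, 6 were called higher and 1 lower with the transgene in KO mice and 5 higher in WT mice. Apoe, whose protein is a Trem2 ligand, was called 1.22-fold higher in KO than WT Tg-SwDI mice (log2 0.28, SE 0.06, adjusted p = 0.0156). It rose 1.78-fold with the transgene in KO and 1.42-fold in WT mice. Clu, the gene of the apolipoprotein clusterin, was called in the interaction (0.37, adjusted p = 0.0463), and with the transgene in KO mice it rose 1.60-fold, the galectin gene Lgals3 3.35-fold and the lipase gene Lpl 1.84-fold.

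Of 17 tested transcription factors that act with Spi1, 13 were called higher with the transgene in KO and 10 in WT mice, and 3 were called higher in KO than WT Tg-SwDI mice. Among them were Bhlhe41 (1.24-fold, adjusted p = 0.00335) and Sall1 (1.21-fold, adjusted p = 0.0391), which are factors of macrophage and microglial identity, Sall1 being also among the 14 microglial genes. Irf5, an interferon regulatory factor, rose 2.83-fold with the transgene in KO mice and was called in the interaction (0.70, adjusted p = 0.0402). Between KO and WT mice without the transgene edgeR, DESeq2 and exactTest called 0 of the 80 genes tested in the 6 lists, and 10 had an unadjusted p under 0.05.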

How the data were processed

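Raw read counts per ENSEMBL gene were deposited by the authors, who used STAR (mm10) and featureCounts and applied no normalization, for 20 libraries of the left hippocampus (1 per mouse, 5 per group by the labels). Strand setting and multimapping reads are not given in the sources used here. Symbols, lengths and 3'UTRs came from GENCODE M21 (99.5% of identifiers matched).

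All 20 mice were fitted with edgeR 4.0.16 in R 4.3.3 (TMM, filterByExpr by group with minimum count 10 and minimum total 15, robust quasi-likelihood F-test on 4 group means, 16 residual degrees of freedom), and p-values were Benjamini-Hochberg adjusted over 16107 genes at 0.05. The script was tested on simulated data. CPM used TMM-scaled library sizes, and the standard error was the log2 fold change divided by the square root of F. Library totals were 19549622 to 21066868 counts, which sets the counting error of low genes. No pair of libraries of 1 group agreed within sampling noise (smallest chi-square per degree of freedom 2.34).

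The 10 genes and the gene lists were chosen with earlier results of these data known. Named by rule were all 10 genes, at most 4 genes per pathway list (lowest p among those called in KO vs WT in Tg-SwDI, then in Tg-SwDI vs Non-Tg in KO) and the 3 genes most like Trem2, Tyrobp and Spi1. The genes of pathway lists called in the interaction and the promoters and markers named were picked after values were seen. Alternatives were RLE factors, library size alone, no filter, a mean CPM of at least 1, DESeq2 1.42.0, exactTest, the compared groups alone, a replicate block, a choroid plexus covariate, removal of GC and length trends, and each mouse left out. The length of the longest coding transcript was added after seeing the data. Protein sequences were not used here, and 1 gene that the rule names is not reported here.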

Additional observations from a re-analysis of the deposited data

Results flagged for a closer look

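Of 40 sets of 5 mice (10 genes in 4 groups), 4 held a mouse far from the other 4 by Dixon's test at the 95% level, where chance gives about 1 in 20. Tyrobp stood at 71.4 CPM in KO Tg-SwDI replicate 5, against 89.9 to 93.9 CPM in the others. Spi1 stood at 18.4 CPM in KO Tg-SwDI replicate 8, against 10.3 to 12.4 CPM, and this library also had 14.6% mitochondrial counts. Cd33 stood at 19.7 CPM in WT Tg-SwDI replicate 5, against 15.7 to 16.6 CPM. Inpp5d stood at 14.6 CPM in KO Non-Tg replicate 1, against 12.7 to 12.9 CPM.

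The difference between KO and WT mice differed with and without the transgene by the interaction test for Trem2 (0.78 on the log2 scale) and Tyrobp (0.74).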

How the results depend on the processing

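For KO against WT in Tg-SwDI, where 2 of the 10 genes were called, 1 was called with library size alone, with the compared groups alone and with GC and length trends removed, and 4 with exactTest. Leaving out 1 mouse gave 1 to 3, with 1 without WT Tg-SwDI replicates 3 or 7. Trem2 remained called under each of these. With a replicate block 0 were called (Trem2 log2 0.34, adjusted p = 0.178, and Tyrobp 0.27, adjusted p = 0.345), while in the interaction both remained called (adjusted p = 0.0161 and 0.0395). Over all genes tested, the replicate numbers showed no pairing of the mice. The 16 pairs of libraries with the same number correlated at -0.40 to 0.16 in their deviations from the group means. Of 20 libraries, 1 correlated best with its own number. Such correlations can miss a smaller effect shared by mice of the same number, so that they do not settle whether the block is needed. In the interaction, 1 gene was called instead of 2 with GC and length trends removed (Tyrobp adjusted p = 0.0644), and 1 to 2 when 1 mouse was left out. In the other 3 comparisons the counts of called genes were within 1.5 times the main count under every alternative: 0 in Non-Tg mice, 9 to 10 for the transgene in KO and 8 to 9 in WT mice. Over the whole table, the replicate block called 8 genes and the compared groups alone 58, against 320, for KO against WT in Tg-SwDI. DESeq2 called 733 and exactTest 565 there, library size alone 217 and 149 with GC and length trends removed, and 563 with the choroid plexus covariate. The cause was not tested.

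Differences near 0 changed sign. Syk in KO against WT Tg-SwDI mice was -0.024 with library size alone and -0.0099 with GC and length trends removed, and -0.026 to 0.076 when 1 mouse was left out (below 0 without WT Tg-SwDI replicate 4 or KO Tg-SwDI replicate 3). Its interaction was -0.14 to 0.015 when 1 mouse was left out (above 0 without WT Non-Tg replicate 3, KO Non-Tg replicate 1 or KO Non-Tg replicate 7). In Non-Tg mice Cd33 was -0.070 to 0.022 (above 0 without WT Non-Tg replicate 7 or KO Non-Tg replicate 7) and Plcg2 -0.037 to 0.092 (below 0 without WT Non-Tg replicate 6 or KO Non-Tg replicate 2). Relative to the mean log2 level of the microglial genes instead of their sum, values with the transgene in KO mice changed from -0.07 to 0.08 for Inpp5d, from -0.26 to -0.10 for Cd33, from -0.44 to -0.28 for Plcg2, from 0.25 to 0.41 for Ms4a6d and from 0.29 to 0.45 for Vav1. Pilra could not be tested at a mean CPM of at least 1. Counts of 2 to 23 limit what can be said of it.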
